A study of Mus musculus with 8 samples.

Results

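The genes described here encode the chaperones and folding enzymes of the lumen of the endoplasmic reticulum (ER): the HSP70 chaperone BiP with its partners, GRP94, the lectins and glucosidases of the calnexin cycle, the disulfide-forming oxidoreductases and oxidases, the prolyl isomerases and selenoprotein K. They were taken by symbol from a list of 39, of which 38 are among the 23337 gene symbols of the count files. The symbol *Vimp* is not. *Pdia2*, a pancreatic protein disulfide isomerase, had 0 to 3 counts in each sample and was too low to be tested, so that 37 of the 14328 tested genes belong to the group. Their mRNA was measured by RNA-seq in liver of 12-week-old C57BL/6 mice, in 8 samples that make 4 groups of 2: WT or HRD1 knockout (genotype Hrd1-/- in the labels), either fasted overnight or fasted overnight and then refed for 4 h. In the knockout mice, called HRD1Alb, Cre under the albumin promoter deletes floxed HRD1 from early in liver development. HRD1 is the ER ubiquitin ligase listed under its symbol *Syvn1*. Liver cells in which the albumin promoter was never active keep the gene. The study's control animals for this line carried the floxed alleles without Cre; whether the WT mice of these samples did, the sex of these mice and the time of day of collection are not given in the sources used here. Nothing in the labels says that the 2 samples of a group came from separate animals, so p-values measure only the spread between these samples.

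Newly made secretory proteins enter the ER unfolded. BiP binds their exposed hydrophobic stretches in cycles of ATP hydrolysis that J-domain proteins start and nucleotide exchange factors end, the calnexin cycle retains glycoproteins through their trimmed glucose residue until they fold, and protein disulfide isomerases, reoxidised by ERO1, form and shuffle disulfide bonds. When unfolded proteins build up, the sensors IRE1, PERK and ATF6 of the unfolded protein response raise transcription of many of these genes, and proteins that fail to fold are passed to HRD1 for degradation. The hepatocyte is a secretory cell that releases most plasma proteins, and its output follows the feeding cycle.

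Libraries held 40210576 to 49117080 counts, and 3 counts corresponded to 0.0508 to 0.0788 CPM, the count scaled by library size and trimmed mean of M-values. *Syvn1*, the targeted gene, had 111 and 99.8 CPM in fasted WT, 32.6 and 31.5 CPM in fasted KO-labelled, 637 and 305 CPM in refed WT and 453 and 132 CPM in refed KO-labelled liver. Both fasted KO-labelled samples were below both fasted WT samples, but the first refed KO-labelled sample lay between the refed WT samples. Neither comparison passed the test (log2 fold change -1.72, adjusted p = 0.170 fasted, and -0.69, adjusted p = 0.391 refed). A count per gene does not separate the deleted exons from the rest, so this does not check the deletion itself. The libraries are therefore called KO-labelled here. The 8 hepatocyte markers summed to 113353 to 153235 CPM in WT and 65804 to 111060 CPM in KO-labelled liver. *Alb* (47744 to 110869 CPM) made up most of each sum. The genotypes overlapped for *Cps1* and *Tat* when fasted and for *Apoa1*, *Apoa2*, *Ttr* and *Tat* when refed. Otherwise both KO-labelled samples were below both WT samples for each hepatocyte marker. The 6 macrophage markers summed to 74.2 to 87.6 and 187 to 413 CPM. The 6 stellate cell and fibroblast markers summed to 163 to 351 and 348 to 480.2 CPM. The other lists, given as the range of sums over the 8 samples, were endothelial markers (83.7 to 107 CPM), cholangiocyte markers (29.1 to 68.3 CPM), lymphocyte and plasma cell markers (2.86 to 7.17 CPM, 5 of 6 in the files), neutrophil markers (1.06 to 8.59 CPM, with *Mpo* at 0 in WT) and pancreatic acinar markers (0.0263 to 0.508 CPM, 5 or 6 of 7 at 0 in a group). Refed endothelial sums (86.6 to 99.8 CPM in WT, 105 to 107 CPM in KO-labelled) and fasted cholangiocyte sums (42.3 to 68.3 and 32.7 to 37.032 CPM) did not overlap between the genotypes either. Lymphocyte and plasma cell sums were apart when fasted (3.31 to 3.42 and 4.30 to 6.17 CPM) and when refed (2.86 to 3.73 and 4.57 to 7.17 CPM). Refed neutrophil sums (1.06 to 1.73 and 2.71 to 8.59 CPM) and fasted acinar sums (0.224 to 0.292 and 0.391 to 0.508 CPM) were also apart. No other listed marker was at 0 in both samples of a group. Within each feeding state the hepatocyte, macrophage, stellate cell and lymphocyte sums did not overlap between the genotypes. The part of any of these marker differences in the results was not tested. In bulk liver fewer cells of a type and less RNA per cell cannot be told apart.

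The promoters of these genes are known for the ER stress response element (ERSE), CCAAT and CCACG separated by 9 bases, to which NF-Y and ATF6 or XBP1 bind, and for its variant ERSE-II, ATTGG and CCACG separated by 1 base. RefSeq promoter windows on GRCm38.p6, from 250 bases before to 50 bases after a start site, were on hand for 33 of the 38 genes and none for *Hyou1*, *Hspa13*, *Erp29*, *Manf* or *Sil1*. On both strands, the ERSE was found in 8 of the 33, against 0.137% of all 27025 symbols with a window, and the ERSE-II in 1 of 33, against 0.0444%. The core TGACGTG of the XBP1 element was found in *Hspa5*, *Txndc5*, *Txndc11*, *Fkbp11* and *Mogs* (2.22% of all symbols), and the ATF4 element TGATG and AA separated by 1 base in *Txndc5* (4.51%). No motifs overlapped each other in these genes. The 9 promoters with an ERSE or ERSE-II are shown because their genes include *Hspa5*, *Hsp90b1* and *Creld2*, among the largest responses to refeeding. Each is read 5′ to 3′ on the strand of its gene, with the ERSE or ERSE-II in capitals on whichever strand it lies:
*Hspa5*, chr2:34771840-34772089, plus strand: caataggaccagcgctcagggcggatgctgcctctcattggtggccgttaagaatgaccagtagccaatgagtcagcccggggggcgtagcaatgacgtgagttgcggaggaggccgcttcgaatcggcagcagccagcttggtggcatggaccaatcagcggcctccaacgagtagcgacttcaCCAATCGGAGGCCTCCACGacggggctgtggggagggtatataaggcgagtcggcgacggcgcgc
*Hsp90b1*, chr10:86705503-86705686, minus strand: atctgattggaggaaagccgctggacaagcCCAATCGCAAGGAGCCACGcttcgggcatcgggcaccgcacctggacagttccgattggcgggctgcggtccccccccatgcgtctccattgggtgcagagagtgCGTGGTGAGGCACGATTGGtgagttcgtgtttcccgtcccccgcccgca
*Calr*, chr8:84847045-84847123, minus strand: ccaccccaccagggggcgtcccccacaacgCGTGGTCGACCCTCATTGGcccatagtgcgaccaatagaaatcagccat
*Canx*, chr11:50325770-50325848, minus strand: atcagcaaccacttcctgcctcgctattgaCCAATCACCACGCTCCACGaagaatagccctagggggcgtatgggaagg
*Pdia6*, chr12:17266461-17266539, plus strand: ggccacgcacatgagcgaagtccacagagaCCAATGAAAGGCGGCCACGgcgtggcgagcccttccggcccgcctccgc
*Ero1lb*, chr13:12565652-12565730, plus strand: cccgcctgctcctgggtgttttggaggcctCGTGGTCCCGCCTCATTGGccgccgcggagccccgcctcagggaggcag
*Dnajb11*, chr16:22857822-22857862, plus strand: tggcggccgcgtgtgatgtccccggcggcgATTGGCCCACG
*Dnajc3*, chr14:118937797-118937875, plus strand: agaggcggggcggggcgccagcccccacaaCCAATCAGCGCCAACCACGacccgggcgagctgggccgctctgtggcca
*Creld2*, chr15:88819490-88819568, plus strand: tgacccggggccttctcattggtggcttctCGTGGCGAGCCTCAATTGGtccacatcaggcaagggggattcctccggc

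The *Hspa5* stretch shows the whole 250 bases before the start site, with the ERSE 47 bases upstream of it and the XBP1 core at 151 bases. *Hsp90b1* carries a pair of ERSEs in opposite orientation, at 194 and 89 bases, and the *Dnajb11* element lies just downstream of the start site. A match is a description of the letters and not a bound site, and its absence from a window says only that these letters are not there.

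The 38 genes together took 0.751 and 0.731% of all counts in the fasted WT samples and 1.06 and 0.929% in the fasted KO-labelled samples. On the scaled values the fasted groups overlapped, with summed levels of 8565 and 8734 CPM in WT and 9598 and 8239 CPM in KO-labelled liver. After refeeding the genes took 2.04 and 1.40% in WT and 4.07 and 2.59% in KO-labelled liver, and summed to 21441 and 14816 CPM and 33365 and 26065 CPM. On both scales all 4 refed samples were above all 4 fasted samples, and both refed KO-labelled samples were above both refed WT samples. *Hspa5* and *Hsp90b1* alone made up 23.8 to 27.2% of the counts of the group in fasted liver and 32.2 to 46.7% in refed liver. Per length of the principal transcript, the highest level in fasted WT liver was that of *P4hb*, which encodes protein disulfide isomerase, at 692 CPM per kb. *Calr* (417 CPM per kb) and *Hsp90b1* (409), whose samples overlapped on that scale, and *Hspa5* (273) followed. In refed KO-labelled liver *Hsp90b1* (2124 CPM per kb) and *Hspa5* (2016), whose samples also overlapped, stood above *P4hb* (1333) and *Calr* (1204).

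**Figure D1:**
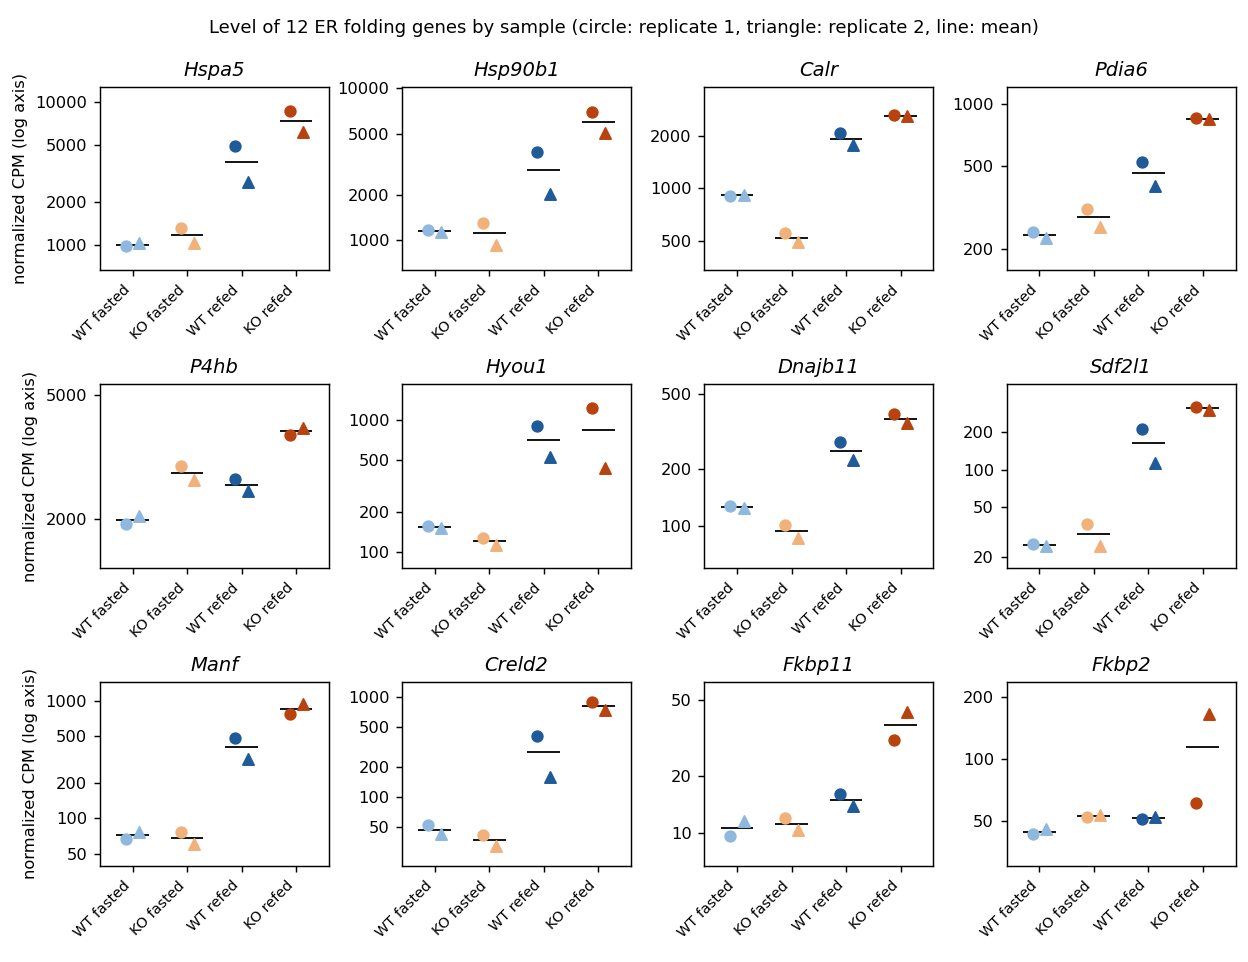
CPM on a log axis of 12 ER folding genes in the 4 groups, with a circle for the first sample, a triangle for the second and a line at their mean. The refed samples of *Hspa5*, *Hsp90b1*, *Creld2*, *Manf* and *Sdf2l1* stand above all their fasted samples in both genotypes.

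Refeeding raised ER folding genes in both genotypes. In WT liver, 8 of the 37 tested genes rose (1.20% of all tested genes did) and 0 fell (1.41% of all): *Hspa5*, *Calr*, *Pdia3*, *Pdia6*, *Dnajb11*, *Sdf2l1*, *Manf* and *Creld2*. Both refed WT samples were above both fasted WT samples for 32 of the 37 genes, as for 30.8% of all genes. The median log2 fold change of the 37 was 0.45 against 0.00 over all genes. In KO-labelled liver, 16 of the 37 rose (5.43% of all) and 0 fell (5.05% of all). These were the same 8 and *Hsp90b1*, *Hyou1*, *Pdia4*, *Erp44*, *Ppib*, *Fkbp11*, *Mogs* and *Selk*. There, 29 genes had both refed samples above both fasted ones (29.2% of all), and the median was 0.85 against 0.02. At an unadjusted p under 0.05, 18 genes were higher and 0 lower in WT (7.94 and 8.38% of all tested genes), and 25 higher and 1 lower in KO-labelled liver (17.2 and 14.5% of all). DESeq2 called 13 genes higher and 0 lower in WT (3.46 and 4.12% of all) and 23 higher and 1 lower in KO-labelled liver (10.7 and 9.68% of all).

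The counts moved with single libraries. In WT liver, 0 genes were called when any 1 of the 4 WT libraries was left out, 1 without either fasted KO-labelled library, and 22 or 21 higher without the first or second refed KO-labelled library (8.58 or 8.47% of all tested genes). In KO-labelled liver, 12 genes were called when any 1 of the WT libraries was left out, 1 or 2 without the first or second fasted KO-labelled library, and 25 higher and 4 lower without the first refed KO-labelled library (24.8 and 26.6% of all). Without the second refed KO-labelled library 26 were higher (10.7% of all) and 0 lower. The 16 were kept in both of the last fits. With the correction for transcript length that is described with the replicate spread, 20 were higher and 1 lower (8.24 and 7.82% of all) and 14 of the 16 were kept. With only the samples of the contrast in the fit, 17 genes were called higher in WT (6.78% of all) and 0 in KO-labelled liver (0% of all).

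In the fit over all 8 samples, some of the genes differed between the genotypes in the refed state. There, 6 of the 37 genes were higher in KO-labelled than in WT liver (7.09% of all tested genes) and 0 were lower (4.84% of all): *Fkbp11*, *Manf*, *Fkbp7*, *Pdia6*, *Selk* and *Txndc12*. Both KO-labelled samples were above both WT samples for 18 genes (30.7% of all) and below for 3 (30.1% of all), *Ganab*, *Pdia5* and *Erp44*. The median log2 fold change was 0.45 against 0.04 over all genes. At an unadjusted p under 0.05, 18 genes were higher and 1 lower (18.8 and 14.5% of all tested genes). DESeq2 called 14 higher and 1 lower, *Ganab* (11.9 and 10.3% of all). With only the refed samples in the fit, 0 genes were called (0% of all). Without any 1 of the WT or fasted KO-labelled libraries fewer genes were called, as over all tested genes. The median log2 fold change of the 37 was then 0.35 to 0.62 (all tested genes 0.05 to 0.06). Without the first refed KO-labelled library 15 were higher and 6 lower (25.0 and 27.8% of all tested genes), with all of the 6 kept. Without the second, 16 were higher and 0 lower (11.9 and 11.7% of all), with 5 of the 6 kept and *Fkbp7* lost. The replicates of the refed KO-labelled group differed by transcript length (described with the replicate spread). In a fit with a length correction only *Pdia6*, at a log2 fold change of 0.75 (adjusted p = 0.0319), and *Manf*, at 0.98 (adjusted p = 0.0247), of the 6 passed. That fit called 4 genes higher and 1 lower (10.1 and 8.96% of all tested genes). New were *Hspa5*, at 1.02 (adjusted p = 0.0436), and *P4hb*, at 0.56 (adjusted p = 0.0324), both higher, and *Ganab*, lower, at -0.45 (adjusted p = 0.0476).

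In the fasted state, 0 genes were higher (0.921% of all) and 0 lower (0.433% of all) in KO-labelled than in WT liver by edgeR's test. At an unadjusted p under 0.05, 4 were higher and 5 lower (10.9 and 7.43% of all). DESeq2 called 1 higher, *P4hb*, and 2 lower, *Calr* and *Erp44* (4.41 and 3.22% of all), and limma-trend 0 and 0. Both KO-labelled samples were above both WT samples for 13 genes (30.6% of all) and below for 14 (34.2% of all), with a median log2 fold change of 0.03. Without the first refed KO-labelled library, which only enters through the shared spread, 6 genes were called higher and 5 lower (9.84 and 11.8% of all tested genes), and without the second 6 and 4 (9.66 and 11.6% of all). In both of these fits *P4hb*, *Txndc11*, *Dnajc10*, *Ppib*, *Fkbp7* and *Fkbp14* were the higher ones and *Calr*, *Canx*, *Pdia5* and *Erp44* among the lower. Leaving out any 1 of the other 6 libraries gave 0 calls.

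**Figure D2:**
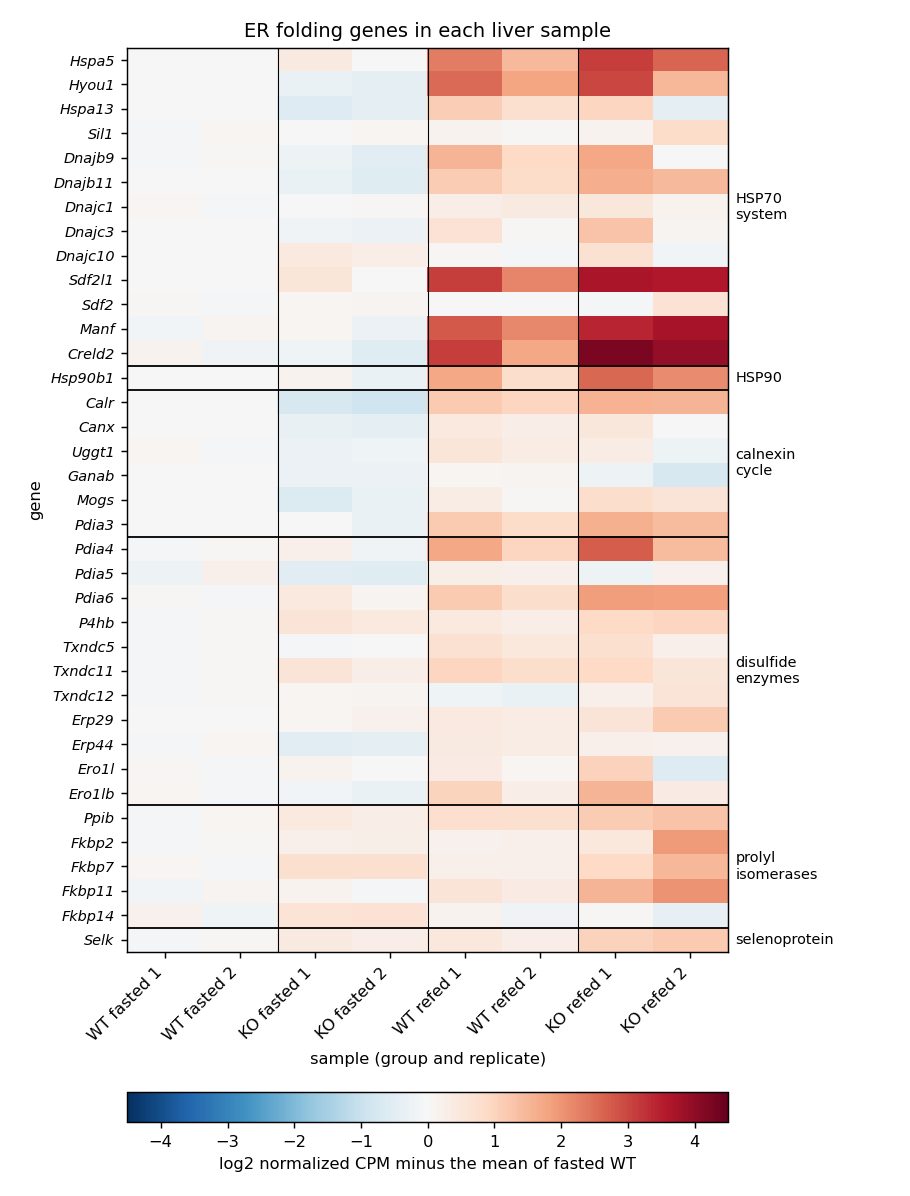
Heat map of the log2 ratio of each gene's CPM in each of the 8 samples to its mean in fasted WT liver, with the 37 tested genes in rows ordered by role and the samples in columns. The refed columns are reddest for *Creld2*, *Manf*, *Sdf2l1*, *Hyou1* and *Hspa5*.

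Among the HSP70 system, BiP itself (*Hspa5*, chr2:34771970-34777547 on GRCm38, the build of all positions given) had 983 and 1022 CPM in fasted WT, 1311 and 1022 CPM in fasted KO-labelled, 4892 and 2759 CPM in refed WT and 8633 and 6170 CPM in refed KO-labelled liver. All refed samples were above all fasted samples, and both refed KO-labelled samples were above both refed WT samples. The rise on refeeding passed the test in WT (log2 fold change 1.93, SE 0.32, adjusted p = 0.0338) and in KO-labelled liver (log2 fold change 2.67, SE 0.33, adjusted p = 0.00752). The difference between the genotypes in the refed state did not pass (log2 fold change 0.95, SE 0.31, adjusted p = 0.0848). *Hsp90b1* (chr10:86690209-86705509), which encodes GRP94, the ER HSP90 that folds integrins and Toll-like receptors, had 1167 and 1142 CPM in fasted WT, 1301 and 935 CPM in fasted KO-labelled, 3818 and 2020 CPM in refed WT and 6952 and 5047 CPM in refed KO-labelled liver. All refed samples were above all fasted ones, and the refed KO-labelled samples above the refed WT samples. It rose on refeeding in KO-labelled liver (log2 fold change 2.42, SE 0.35, adjusted p = 0.0112), while the WT value did not pass (log2 fold change 1.34, SE 0.34, adjusted p = 0.0987).

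The largest responses to refeeding were those of *Creld2*, *Manf* and *Sdf2l1*, genes known to be induced by ER stress. *Creld2* (chr15:88819646-88826683), a factor with EGF-like repeats, had 52.4 and 42.9 CPM in fasted WT, 41.6 and 32.7 CPM in fasted KO-labelled, 406 and 160.2 CPM in refed WT and 888 and 739 CPM in refed KO-labelled liver. The refed samples stood apart from the fasted ones in both genotypes and the refed KO-labelled samples from the refed WT samples, although the refed WT samples were themselves more than 2-fold apart. It rose in WT (log2 fold change 2.57, SE 0.42, adjusted p = 0.0335) and KO-labelled liver (log2 fold change 4.45, SE 0.45, adjusted p = 0.00418). The genotypes in the refed state differed at an adjusted p just outside the threshold (log2 fold change 1.52, SE 0.40, adjusted p = 0.0511). *Manf* (chr9:106838312-106891979), which encodes a BiP-binding factor that is secreted under ER stress, had 66.8 and 77.3 CPM in fasted WT, 76.6 and 60.5 CPM in fasted KO-labelled, 487 and 322 CPM in refed WT and 777 and 951 CPM in refed KO-labelled liver. No refed sample overlapped a fasted one, and the genotypes were apart only when refed. *Manf* rose in WT (log2 fold change 2.49, SE 0.26, adjusted p = 0.0120) and KO-labelled liver (log2 fold change 3.66, SE 0.27, adjusted p = 0.00346). It was also higher in refed KO-labelled than refed WT liver (log2 fold change 1.10, SE 0.25, adjusted p = 0.0358). *Sdf2l1* (chr16:17130138-17132383), which encodes a partner of the J protein ERdj3, had 25.1 and 24.6 CPM in fasted WT, 36.5 and 24.6 CPM in fasted KO-labelled, 213 and 114 CPM in refed WT and 318 and 302 CPM in refed KO-labelled liver. Refed and fasted samples were again apart, and it rose in WT (log2 fold change 2.72, SE 0.33, adjusted p = 0.0170) and KO-labelled liver (log2 fold change 3.34, SE 0.34, adjusted p = 0.00409).

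The J protein ERdj3 (*Dnajb11*, chr16:22857845-22879634), which hands unfolded clients to BiP, had 128 and 124 CPM in fasted WT, 101 and 86.1 CPM in fasted KO-labelled, 279 and 223 CPM in refed WT and 391 and 350.3 CPM in refed KO-labelled liver. The KO-labelled samples were both below the WT samples when fasted and both above them when refed. It rose in WT (log2 fold change 0.99, SE 0.18, adjusted p = 0.0383) and in KO-labelled liver (log2 fold change 1.98, SE 0.18, adjusted p = 0.00399). Neither genotype difference passed (log2 fold change -0.43, adjusted p = 0.258 fasted, and 0.56, adjusted p = 0.0777 refed). *Hyou1* (chr9:44379490-44392369), which encodes the nucleotide exchange factor GRP170, had 158 and 152 CPM in fasted WT, 127 and 113 CPM in fasted KO-labelled, 901 and 527 CPM in refed WT and 1249 and 436 CPM in refed KO-labelled liver. The second refed KO-labelled sample was below both refed WT samples and the first above them. *Hyou1* rose in KO-labelled liver (log2 fold change 2.81, SE 0.49, adjusted p = 0.0179), and the WT value did not pass (log2 fold change 2.21, SE 0.48, adjusted p = 0.0660). *Dnajb9*, which encodes ERdj4, a J protein that restrains IRE1, had 60.5 and 64.6 CPM in fasted WT, 53.2 and 44.9 CPM in fasted KO-labelled, 179 and 118 CPM in refed WT and 209 and 64.0 CPM in refed KO-labelled liver. Its refed KO-labelled samples lay on either side of the refed WT samples, and neither refeeding comparison passed (log2 fold change 1.25, adjusted p = 0.266 in WT, and 1.48, adjusted p = 0.0967 in KO-labelled liver). *Hspa13*, an HSP70-like ATPase, had 36.1 and 36.9 CPM in fasted WT, 24.3 and 27.8 CPM in fasted KO-labelled, 79.2 and 59.9 CPM in refed WT and 71.3 and 27.6 CPM in refed KO-labelled liver. Its refed WT samples were above the fasted ones, but the second refed KO-labelled sample was within the fasted KO-labelled range. Of the 13 tested genes of the HSP70 system, 5 rose in WT and 6 in KO-labelled liver (1.20 and 5.43% of all tested genes). Only *Manf* of the 13 was called between the genotypes. *Dnajc3*, which encodes the co-chaperone P58IPK, had 359.9 and 353 CPM in fasted WT, 320.1 and 295 CPM in fasted KO-labelled, 557 and 370.3 CPM in refed WT and 859 and 387 CPM in refed KO-labelled liver. Its first refed KO-labelled sample was the highest, more than 2-fold above the second. *Sil1*, which encodes a further nucleotide exchange factor, had 50.4 and 55.5 CPM in fasted WT, 52.5 and 56.4 CPM in fasted KO-labelled, 59.6 and 54.8 CPM in refed WT and 58.4 and 94.002 CPM in refed KO-labelled liver. Its second refed KO-labelled sample stood above all others. *Dnajc3*, *Sil1* and the J proteins *Dnajc1* and *Dnajc10* and the ERdj3 partner *Sdf2*, whose samples lay between 29.3 and 60.4 CPM, passed in no comparison.

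In the calnexin cycle, the lectin chaperone calreticulin (*Calr*, chr8:84841850-84846934) had 899 and 922 CPM in fasted WT, 553 and 489 CPM in fasted KO-labelled, 2076 and 1783 CPM in refed WT and 2662 and 2598 CPM in refed KO-labelled liver. Fasted KO-labelled samples were the lowest and refed KO-labelled samples the highest, with no overlap between any of the 4 groups. It rose in WT (log2 fold change 1.08, SE 0.17, adjusted p = 0.0310) and KO-labelled liver (log2 fold change 2.34, SE 0.18, adjusted p = 0.00346). It had the smallest adjusted p of the group for the fasted genotype difference, which did not pass (log2 fold change -0.81, SE 0.17, adjusted p = 0.0677). *Canx*, its membrane-bound relative calnexin, had 412 and 409 CPM in fasted WT, 327 and 299 CPM in fasted KO-labelled, 554 and 504 CPM in refed WT and 583 and 406 CPM in refed KO-labelled liver. The fasted KO-labelled samples were below the fasted WT samples, and no comparison passed. *Pdia3* (chr2:121413775-121438687), which encodes ERp57, the oxidoreductase that docks on both lectins, had 546 and 524 CPM in fasted WT, 537 and 433 CPM in fasted KO-labelled, 1200 and 939 CPM in refed WT and 1610 and 1419 CPM in refed KO-labelled liver. All refed samples were above all fasted ones, and it rose in WT (log2 fold change 1.0, SE 0.20, adjusted p = 0.0489), a call lost with RLE scaling, and in KO-labelled liver (log2 fold change 1.64, SE 0.20, adjusted p = 0.00734). *Mogs* (chr6:83115496-83118898), which encodes glucosidase I, the enzyme that removes the first glucose of the glycan, had 66.8 and 67.8 CPM in fasted WT, 44.0 and 54.6 CPM in fasted KO-labelled, 84.8 and 70.7 CPM in refed WT and 117 and 100.2 CPM in refed KO-labelled liver. Like *Calr*, it was lower in both KO-labelled samples when fasted and higher in both when refed, and it rose in KO-labelled liver (log2 fold change 1.14, SE 0.18, adjusted p = 0.0144). *Ganab*, which encodes the catalytic subunit of glucosidase II, had 269.9 and 262 CPM in fasted WT, 219 and 222 CPM in fasted KO-labelled, 279.6 and 286 CPM in refed WT and 228 and 160.4 CPM in refed KO-labelled liver. It was the 1 gene of the group below WT in refed KO-labelled liver at an unadjusted p under 0.05 (log2 fold change -0.54, SE 0.19, adjusted p = 0.0983). *Uggt1*, which encodes the folding sensor that returns a glucose to misfolded glycoproteins, had 86.8 and 77.9 CPM in fasted WT, 69.0 and 72.7 CPM in fasted KO-labelled, 121 and 104 CPM in refed WT and 105 and 70.0 CPM in refed KO-labelled liver. The refed WT samples were above the fasted ones, the refed KO-labelled samples overlapped the fasted range, and it passed in no comparison. All 6 genes of this cycle had log2 fold changes below 0 between the genotypes in fasted liver, and for 5 both KO-labelled samples were below both WT samples (34.2% of all tested genes).

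Among the disulfide enzymes, *Pdia6* (chr12:17266545-17284770), which encodes the oxidoreductase P5, had 241 and 224 CPM in fasted WT, 312 and 255 CPM in fasted KO-labelled, 525 and 402 CPM in refed WT and 851 and 844 CPM in refed KO-labelled liver. Refed samples were above fasted ones, and refed KO-labelled samples, nearly equal to each other, were above refed WT samples. It rose in WT (log2 fold change 0.996, SE 0.19, adjusted p = 0.0461) and KO-labelled liver (log2 fold change 1.58, SE 0.19, adjusted p = 0.00739). It was also higher in refed KO-labelled than refed WT liver (log2 fold change 0.87, SE 0.19, adjusted p = 0.0332). *Pdia4* (chr6:47796141-47813430), which encodes ERp72, had 260.1 and 286 CPM in fasted WT, 316 and 246 CPM in fasted KO-labelled, 910.4 and 529 CPM in refed WT and 1792 and 734 CPM in refed KO-labelled liver. The refed KO-labelled samples were more than 2-fold apart, and it rose in KO-labelled liver (log2 fold change 2.17, SE 0.44, adjusted p = 0.0281) with no call in WT (log2 fold change 1.40, SE 0.43, adjusted p = 0.162). *P4hb*, protein disulfide isomerase itself and also a subunit of collagen prolyl 4-hydroxylase and of the microsomal triglyceride transfer protein, had 1918 and 2039 CPM in fasted WT, 2945 and 2661 CPM in fasted KO-labelled, 2684 and 2456 CPM in refed WT and 3719 and 3907 CPM in refed KO-labelled liver. Its KO-labelled samples were above the WT samples in both feeding states, without passing in either (log2 fold change 0.50, adjusted p = 0.176 fasted, and 0.57, adjusted p = 0.0672 refed). *Txndc12* (chr4:108834601-108862127), which encodes the small oxidoreductase ERp18, had 33.2 and 36.3 CPM in fasted WT, 36.7 and 37.4 CPM in fasted KO-labelled, 30.3 and 28.3 CPM in refed WT and 41.1 and 52.0 CPM in refed KO-labelled liver. Refed WT samples were its lowest and refed KO-labelled samples its highest, and the refed genotype difference passed (log2 fold change 0.67, SE 0.17, adjusted p = 0.0458). *Erp44*, which encodes the protein that retrieves ERO1 from the secretory pathway, had 78.5 and 88.1 CPM in fasted WT, 58.1 and 60.9 CPM in fasted KO-labelled, 109 and 104 CPM in refed WT and 97.6 and 94.5 CPM in refed KO-labelled liver. It rose on refeeding in KO-labelled liver (log2 fold change 0.69, SE 0.14, adjusted p = 0.0295) and was below WT in both states, without passing. The ERO1 oxidases, *Ero1l* and *Ero1lb*, which pass electrons from protein disulfide isomerase to oxygen, were not called. *Ero1l* had 17.2 and 16.1 CPM in fasted WT, 18.5 and 16.996 CPM in fasted KO-labelled, 21.4 and 17.8 CPM in refed WT and 34.002 and 11.046 CPM in refed KO-labelled liver, and its refed KO-labelled samples were its highest and its lowest. *Ero1lb* had 60.5 and 52.9 CPM in fasted WT, 52.4 and 46.2 CPM in fasted KO-labelled, 112 and 69.4 CPM in refed WT and 165 and 73.3 CPM in refed KO-labelled liver. Its first refed sample was higher than its second in both genotypes. *Pdia5*, *Txndc5*, *Txndc11* and *Erp29*, all oxidoreductases or relatives of them, ranged from 29.9 to 319 CPM over the samples and passed in no comparison either.

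Of the 5 prolyl isomerases, which speed the turn of proline peptide bonds, 2 were higher in refed KO-labelled than refed WT liver (7.09% of all). *Fkbp11* (chr15:98724366-98728198) had 9.73 and 11.7 CPM in fasted WT, 12.0 and 10.4 CPM in fasted KO-labelled, 15.999 and 13.9 CPM in refed WT and 30.7 and 43.2 CPM in refed KO-labelled liver. The refed KO-labelled samples were the highest, with the refed WT samples between them and the fasted ones. It was called between the genotypes in refed liver (log2 fold change 1.30, SE 0.22, adjusted p = 0.0184) and on refeeding in KO-labelled liver (log2 fold change 1.72, SE 0.22, adjusted p = 0.00865). *Fkbp7* (chr2:76663044-76673116) had 2.39 and 2.14 CPM in fasted WT, 3.71 and 3.70 CPM in fasted KO-labelled, 2.67 and 2.63 CPM in refed WT and 4.21 and 6.40 CPM in refed KO-labelled liver. KO-labelled samples were above WT samples in both states, and the refed difference passed narrowly (log2 fold change 1.002, SE 0.26, adjusted p = 0.0496), and was lost without the second refed KO-labelled library, with RLE scaling and with limma-trend. *Ppib*, which encodes cyclophilin B, a partner of collagen-modifying enzymes and calreticulin, had 46.1 and 51.2 CPM in fasted WT, 66.1 and 59.1 CPM in fasted KO-labelled, 81.7 and 80.0 CPM in refed WT and 106 and 119 CPM in refed KO-labelled liver. Its KO-labelled samples were above its WT samples in both states, and it rose on refeeding in KO-labelled liver (log2 fold change 0.85, SE 0.15, adjusted p = 0.0202). *Fkbp2* had 42.9 and 45.3 CPM in fasted WT, 52.2 and 53.3 CPM in fasted KO-labelled, 50.8 and 51.9 CPM in refed WT and 61.2 and 167 CPM in refed KO-labelled liver, and its second refed KO-labelled sample stood far above all others. *Fkbp14*, an isomerase of collagen folding, had 11.7 and 8.73 CPM in fasted WT, 15.6 and 15.8 CPM in fasted KO-labelled, 11.3 and 9.08 CPM in refed WT and 10.4 and 7.78 CPM in refed KO-labelled liver. It was the 1 gene of the group that was lower after refeeding in KO-labelled liver at an unadjusted p under 0.05 (log2 fold change -0.79, SE 0.23, adjusted p = 0.0710). In fasted liver all 5 isomerases had log2 fold changes above 0 between the genotypes, and for 4 both KO-labelled samples were above both WT samples (30.6% of all tested genes). *Selk* (chr14:29968308-29975662), which encodes selenoprotein K, an ER membrane protein that binds degradation factors, had 39.6 and 43.0 CPM in fasted WT, 54.8 and 50.3 CPM in fasted KO-labelled, 57.5 and 50.2 CPM in refed WT and 84.2 and 92.5 CPM in refed KO-labelled liver. It was higher in refed KO-labelled than refed WT liver (log2 fold change 0.71, SE 0.16, adjusted p = 0.0326) and rose on refeeding in KO-labelled liver (log2 fold change 0.75, SE 0.16, adjusted p = 0.0289). With the length correction, the refed log2 fold changes of *Fkbp7*, *Fkbp11*, *Txndc12* and *Selk* between the genotypes were 0.46 (adjusted p = 0.170), 0.73 (adjusted p = 0.0623), 0.31 (adjusted p = 0.149) and 0.47 (adjusted p = 0.0667). The refeeding calls of *Ppib* and *Selk* in KO-labelled liver were also lost there, at log2 fold changes of 0.35 (adjusted p = 0.349) and 0.47 (adjusted p = 0.0709). New higher calls there on refeeding in KO-labelled liver were *Canx*, *Uggt1*, *Dnajc1*, *Dnajc3*, *Ero1lb* and *Erp29* (adjusted p 0.0076 to 0.0411). *Fkbp14* was called lower (adjusted p = 0.0469). The correction took *Erp29* as 5204 bases long, although its second refed KO-labelled sample was the higher (log2 ratio 0.61). In WT liver *Hyou1* and *Txndc11* were new. *Calr* was called lower in fasted KO-labelled liver (log2 fold change -0.81, adjusted p = 0.0352). Elsewhere, passing in no comparison refers to the fit without the correction.

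**Figure D3:**
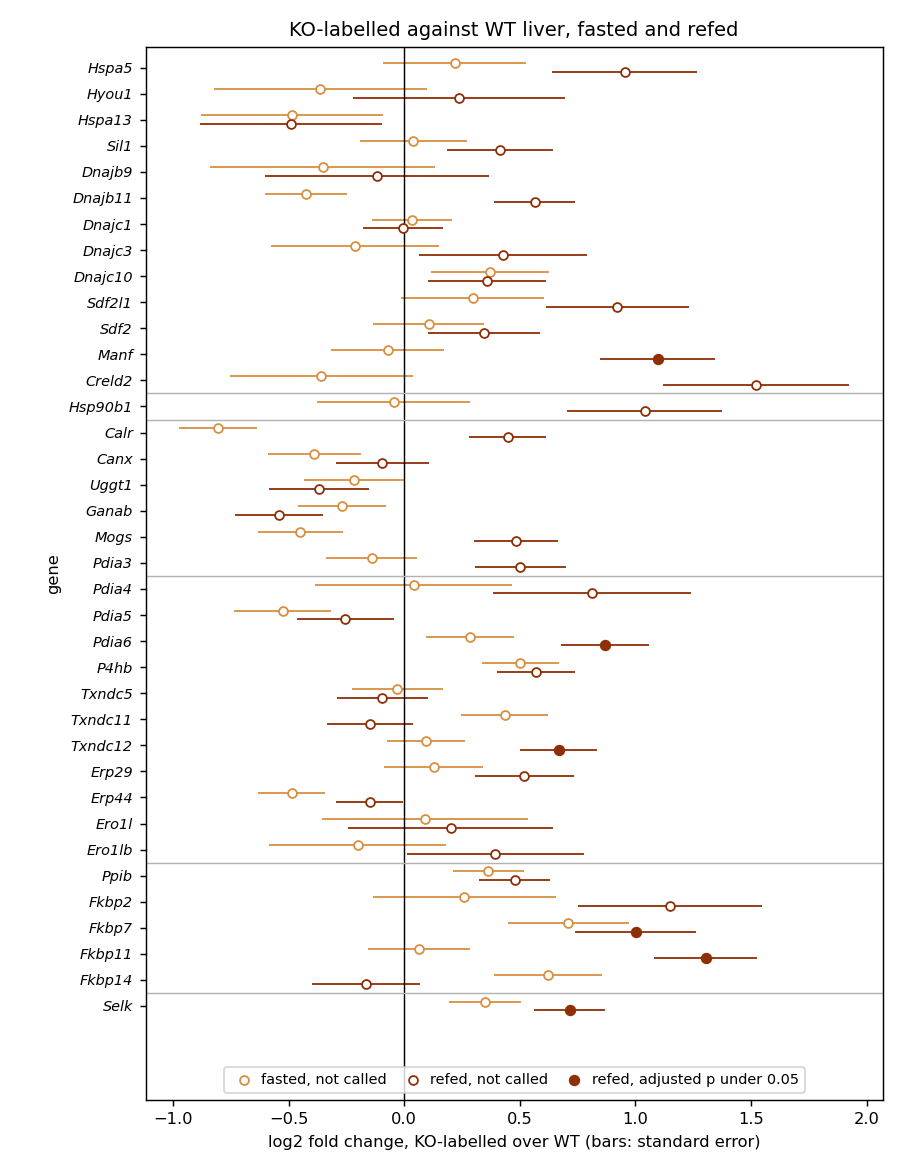
Log2 fold change of KO-labelled over WT liver with its SE for the 37 tested genes, grouped by role, in fasted and in refed liver. Filled points passed the test: 0 in fasted and 6 in refed liver, all of them to the right of 0.

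*Creld2*, *Manf* and *Sdf2l1* had the 3 largest log2 fold changes on refeeding in both genotypes. Across the 37 genes, log2 fold changes on refeeding in WT and in KO-labelled liver, which share no samples, had a Pearson correlation of 0.916 and a Spearman correlation of 0.835, against a Pearson correlation of 0.513 over all tested genes. The genes share libraries and are not replicates. The rise was larger in KO-labelled liver for 29 of the 37 genes, as for 52.1% of all tested genes. The test of that difference itself, genotype by feeding, called 0 genes of the group and 0% of all tested genes, with 7 genes above 0 and 1 below at an unadjusted p under 0.05 (4.41 and 4.03% of all). Limma-trend also called 0 genes and DESeq2 1, *Calr* (0.342% of all above 0). The largest differences were 1.88 for *Creld2* (SE 0.56, adjusted p = 0.561) and 1.25 for *Calr* (SE 0.24, adjusted p = 0.544). Without the first refed KO-labelled library 10 genes were called above 0 and 6 below (15.4 and 18.0% of all tested genes), and without the second 1 above 0, *Calr* (0.458%).

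The 9 genes with an ERSE or ERSE-II, whose promoters are printed with the motif description, were set beside the 23 other tested genes with a promoter window. On refeeding, 5 of the 9 and 2 of the 23 rose in WT liver (1.20% of all tested genes), with median log2 fold changes of 0.996 and 0.36. In KO-labelled liver 6 of the 9 and 8 of the 23 rose (5.43% of all), with medians of 1.98 and 0.51. Between the genotypes in refed liver 1 of the 9, *Pdia6*, and 4 of the 23 were called higher (7.09% of all), with medians of 0.56 and 0.36. Those 4 were *Fkbp11*, *Fkbp7*, *Selk* and *Txndc12*. The 5 genes without a window are in neither set. Among them are *Manf* (refeeding log2 fold changes 2.49 in WT and 3.66 in KO-labelled liver) and *Hyou1* (2.21 and 2.81), while *Hspa13*, *Erp29* and *Sil1* were not called. *Sdf2l1*, which rose in both genotypes, held none of the searched motifs in its window. *Canx*, which holds an ERSE, was not called in any comparison in the fit without the length correction. These are counts over genes that share libraries, with no test.

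**Figure D4:**
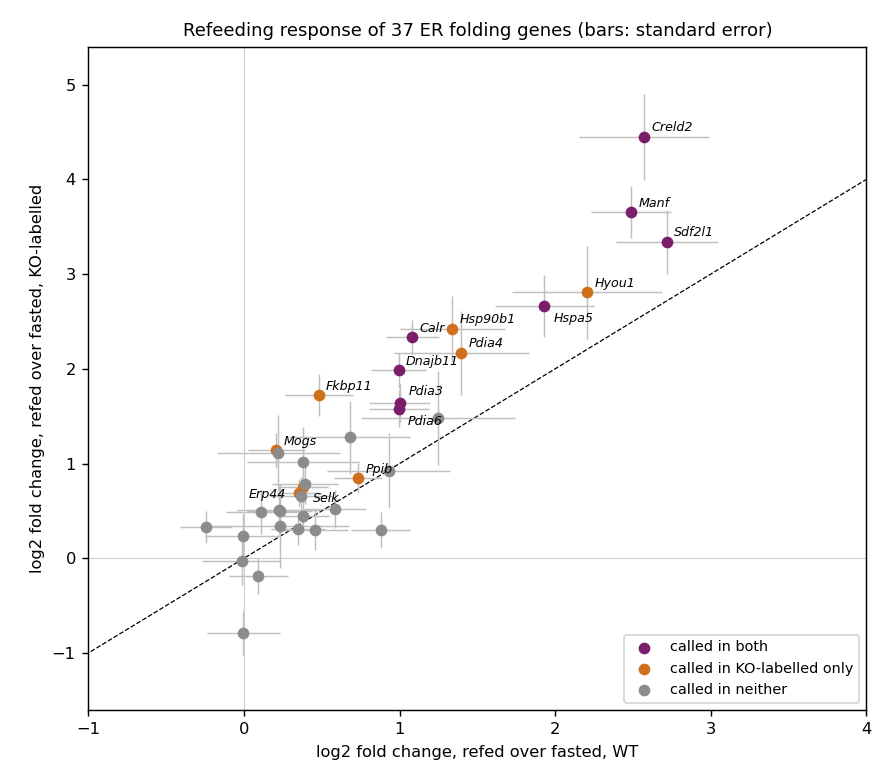
Log2 fold change on refeeding in KO-labelled liver against that in WT liver, 1 point for each of the 37 genes, with SE bars and a dashed line of equal response. Purple points were called in both genotypes (8), orange points in KO-labelled liver only (8) and grey points in neither, and 29 of the 37 points lie above the line.

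The replicates of the refed KO-labelled group differed more than those of the other groups. The log2 ratio of the second to the first sample had an SD over the 37 genes of 0.724, against 0.158 in fasted WT, 0.190 in fasted KO-labelled and 0.335 in refed WT liver. Over all tested genes these SDs were 0.931, against 0.577, 0.393 and 0.465. In the refed KO-labelled group 8 genes (21.6%) were at least 2-fold apart, against 22.4% of all tested genes. In refed WT liver 1 gene was, *Creld2* (4.84% of all). In the fasted groups 0 were (7.96% of all in WT and 2.96% in KO-labelled liver). Lower in the second refed KO-labelled sample were *Dnajb9* (-1.71), *Ero1l* (-1.62), *Hyou1* (-1.52), *Hspa13* (-1.37), *Pdia4* (-1.29), *Ero1lb* (-1.17) and *Dnajc3* (-1.15), and higher was *Fkbp2* (1.45). *Calr*, *P4hb*, *Pdia6*, *Sdf2l1* and *Erp44* were the 5 closest pairs. In refed WT liver the second sample was the lower for 33 of the 37 genes, with a median of -0.219 against 0.00207 over all genes.

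The ratio within the refed KO-labelled group followed transcript length. Its Spearman correlation with the length of the principal transcript was -0.680 over the 37 genes and -0.585 over 14176 tested genes, as a description over genes of 1 pair of libraries. In the other groups the value over the 37 genes was -0.341, 0.176 and -0.150 in fasted WT, fasted KO-labelled and refed WT liver. Of the 8 genes with transcripts under 1500 bases, such as *Fkbp2*, *Fkbp11*, *Fkbp7* and *Ppib*, 6 were higher in the second refed KO-labelled sample (median log2 ratio 0.42, all tested genes of that length 0.77). Of the 13 with transcripts of at least 3000 bases 1 was, *Erp29* (median -0.58, all -0.46), whose annotated principal transcript is 5204 bases long. The 16 between had a median of -0.10 (all 0.13). The length correction removes each library's trend with transcript length, so a small correlation after it is largely built in. The value over the 37 genes was then 0.0107 and is no test of the correction. With the correction 6 genes (16.2%) were still at least 2-fold apart, a higher share than among all tested genes. These values do not show which sample of the pair stands apart.

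**Figure D5:**
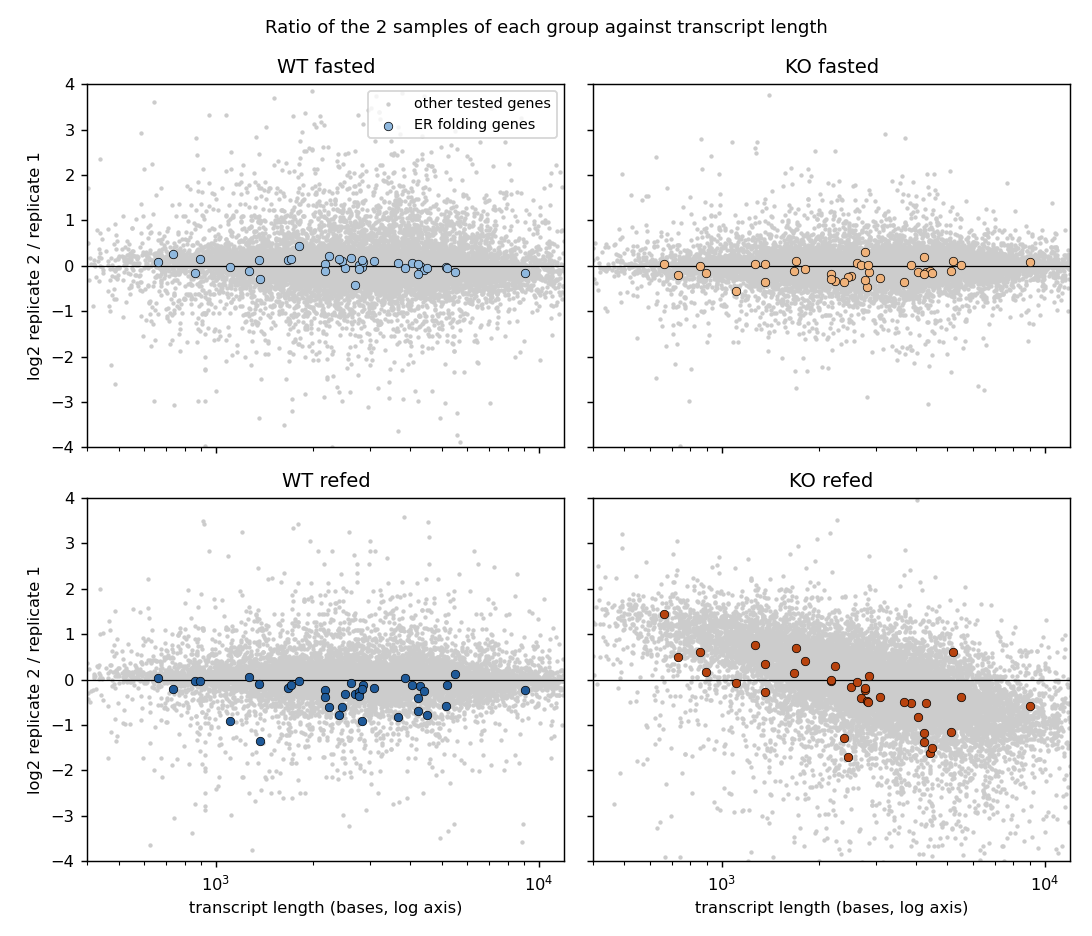
Log2 ratio of the second to the first sample of each group against the length of the principal transcript in bases (log axis), for the 37 genes over all tested genes in grey; genes beyond 4 log2 units or outside 400 to 12000 bases are not drawn. The points slope downwards in refed KO-labelled liver, where the Spearman correlation over the 37 genes is -0.680.

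Other ER folding genes were read from a list of 44, of which 42 were tested. Between the genotypes 0 were called in fasted liver. There, 3 were higher and 3 lower at an unadjusted p under 0.05 (10.9 and 7.43% of all tested genes). In refed liver 5 were higher and 1 lower in KO-labelled samples (7.09 and 4.84% of all tested genes). *Serpinh1*, which encodes the collagen chaperone HSP47, had 10.3 and 10.8 CPM in refed WT and 26.9 and 36.7 CPM in refed KO-labelled liver (log2 fold change 1.59, SE 0.30, adjusted p = 0.0233). The others were *Fkbp10* and *P4ha1*, also of collagen folding, the cyclophilin *Ppic* and the ER peroxidase *Gpx7*, with log2 fold changes of 1.72, 0.77, 1.87 and 1.84. The stellate cell and fibroblast markers, whose cells make collagen, were 163 to 199.9 CPM in refed WT and 348 to 480.2 CPM in refed KO-labelled liver, and their part in these differences was not tested. *Tmx4*, a transmembrane thioredoxin, was lower, with 26.0 and 28.7 CPM in refed WT and 9.62 and 12.998 CPM in refed KO-labelled liver (log2 fold change -1.27, SE 0.19, adjusted p = 0.0138). Refeeding moved 0 of the 42 in WT liver. At an unadjusted p under 0.05, 6 were higher and 3 lower there (7.94 and 8.38% of all tested genes). In KO-labelled liver it raised 6 (among them *Serpinh1* and *P4ha1*) and lowered 1, *Tmx4* (5.43 and 5.05% of all).

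Of the stress factors, *Ddit3*, which encodes the PERK-branch factor CHOP, had 6.66 and 5.62 CPM in fasted WT, 15.5 and 14.8 CPM in fasted KO-labelled, 16.1 and 11.3 CPM in refed WT and 251 and 241 CPM in refed KO-labelled liver. KO-labelled samples were above WT samples in both states, by a log2 fold change of 1.30 fasted (adjusted p = 0.0395) and 4.17 refed (adjusted p = 0.00126). *Xbp1*, whose protein drives many of the folding genes, had 202 and 241 CPM in fasted WT, 174 and 178 CPM in fasted KO-labelled, 356 and 351 CPM in refed WT and 297 and 280.4 CPM in refed KO-labelled liver. Its KO-labelled samples were below its WT samples in both states, without passing (adjusted p = 0.307 fasted and 0.218 refed). A count per gene does not measure *Xbp1* splicing. *Atf4* had 136 and 182 CPM in refed WT and 243 and 269 CPM in refed KO-labelled liver, while its fasted genotypes overlapped. Among sensor genes, the second refed KO-labelled sample was more than 2-fold below the first for *Ern1* (30.2 and 3.88 CPM), *Atf6* (101 and 45.8 CPM) and *Eif2ak3* (30.7 and 14.8 CPM).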

How the data were processed

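The members and the gene lists were chosen with earlier results of these data known. The authors deposited whole-number counts per gene symbol for each liver sample. The submitters' processing notes name cutadapt, STAR, HTSeq and DESeq2 and the build mm10, while the study's methods describe ERANGE; annotation and strand setting are not given in the sources used here. Counts were fitted with edgeR 4.0.16 in R 4.3.3 (quasi-likelihood F test, TMM scaling, 1 coefficient per group over all 8 samples, which share 1 estimate of the spread), after filterByExpr (minimum count 10, total 15). SE is the absolute log2 fold change over the square root of F. Called means a Benjamini-Hochberg adjusted p under 0.05 over 14328 genes. For single values, 2 against 2 samples cannot go below an exact permutation p of 0.333. All members are accounted for, with values per sample for those called between genotypes and for 20 core genes, and for others that were called or stood apart. *Ddit3*, *Xbp1*, *Atf4*, *Ern1*, *Atf6*, *Eif2ak3* and called genes of the list of 44 were also named. The length correction removes each library's trend with transcript length (GENCODE M21, matched by symbol). Alternatives used DESeq2 1.42.0 and limma 3.58.1. The code was tested on simulated data. These had a smaller spread within groups than the real counts and no difference between replicates by transcript length.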

Additional observations from a re-analysis of the deposited data

Results flagged for a closer look

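Of the 37 genes, 4 were flagged because both KO-labelled samples lay below both WT samples in fasted liver and above both in refed liver, a pattern that 3.06% of all tested genes showed. The difference between the refed and the fasted log2 fold change was 1.25 for *Calr* (adjusted p = 0.544), 0.99 for *Dnajb11* (adjusted p = 0.558), 1.88 for *Creld2* (adjusted p = 0.561) and 0.93 for *Mogs* (adjusted p = 0.561). None of the 4 passed edgeR's test of genotype by feeding. Groups of 2 samples are too small for a search for outlying samples.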

How the results depend on the processing

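Counts of called genes of the 37 are given as alternatives to 0 higher and 0 lower (fasted genotype difference), 6 and 0 (refed genotype difference), 8 and 0 (refeeding in WT), 16 and 0 (refeeding in KO-labelled liver) and 0 and 0 (genotype by feeding). With DESeq2 the counts were 1 and 2, 14 and 1, 13 and 0, 23 and 1, and 1 and 0. With only the samples of the contrast they were 4 and 3 (8.26 and 6.32% of all tested genes), 0 and 0, 17 and 0 (6.78 and 7.26% of all), and 0 and 0. With the length correction the fasted genotype counts were 0 and 1 (3.59 and 2.62% of all tested genes). The refed ones were 4 and 1 (10.1 and 8.96%, 2 of the 6 kept). Refeeding gave 10 and 0 (2.97 and 3.36%) in WT and 20 and 1 (8.24 and 7.82%) in KO-labelled liver. With the replicate block added, the genotype counts were 0 and 1 (2.65 and 2.09%) and 8 and 0 (9.30 and 8.93%, 2 of the 6 kept). Refeeding then gave 11 and 0 (2.65 and 2.85%) and 20 and 1 (7.93 and 7.69%). Genotype by feeding gave 0 and 0 (0% of all) in both fits. By an unadjusted p under 0.05 and a change of at least 2-fold, 4 genes were higher by genotype and feeding. The share of all tested genes under this rule was not computed. The rule moved other comparisons too. For the refed genotype difference it took in *Hsp90b1* and *Creld2*, among others, and left out *Pdia6*, *Selk* and *Txndc12*. Leaving out 1 library at a time gave 0 to 6 higher and 0 to 5 lower, 0 to 16 and 0 to 6, 0 to 22 and 0, 1 to 26 and 0 to 4, and 0 to 10 and 0 to 6. The replicate block alone gave 0 and 0 (0.572 and 0.258% of all tested genes) and 7 and 0 (5.54 and 4.20%) between the genotypes. On refeeding it gave 9 and 0 (0.900 and 1.23%) and 17 and 0 (4.53 and 4.84%). Genotype by feeding gave 0 and 0 (0% of all) there. Same-numbered samples deviated together only weakly (r 0.0161 to 0.179), so the numbers were not taken as pairs. For *Ppib*, the refed genotype difference of 0.48 was 0.02 (adjusted p = 0.965) with the length correction alone and turned to -0.012 (adjusted p = 0.974) with the replicate block added. Of the other alternative values of single genes, 1204 kept their direction and side of the threshold, 138 passed it newly and 214 no longer did. The median replicate ratio of the refed KO-labelled group, -0.228, was -0.189 with RLE scaling and -0.310 with the length correction. *Fkbp7*, with 88 to 108 counts in the WT samples, is the shallowest tested member, and 2 samples a group limit the tests.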
